A study of Sus scrofa with 6 samples.

Results

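HSD3B1 and HSD17B1 encode 2 enzymes of ovarian steroid synthesis, and they were chosen by their log2 levels on these arrays, which differed in opposite directions between porcine oocytes matured in culture and oocytes before maturation. Each gene was found by its symbol in the probe annotation of the array, where 1 probe carries each symbol alone. These 2 probes are 2 of 12258, and the genes are 2 of 9828 with a name. Since the same difference chose both genes, their own values are given as a description with no test.

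The matured group comprised 3 pools of 50 oocytes, taken as cumulus-oocyte complexes and kept for 44 h at 38 °C under 5% CO2 in maturation medium with 10% porcine follicular fluid, 2.5 IU/ml hCG and 2.5 IU/ml eCG. The group before maturation comprised 3 pools of 50 oocytes taken before maturation in culture, which the sample titles call in vivo oocytes. All pools came from pubertal crossbred Landrace gilts at slaughter, and total RNA of each pool was measured on an Affymetrix array after amplification from 100 ng. Only the matured pools met the culture medium and its gonadotropins, so maturation and culture cannot be told apart. The labels do not give how many gilts stand behind a pool or how completely the surrounding cells were removed, and they assign to no pool the dye test of oocytes that the design text names.

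In the follicle, cholesterol is first turned into pregnenolone inside the mitochondrion. The hydroxysteroid dehydrogenase encoded by HSD3B1 then converts pregnenolone into progesterone, and dehydroepiandrosterone into androstenedione. Another hydroxysteroid dehydrogenase, encoded by HSD17B1, acts at the oestrogen end of the pathway, where it reduces oestrone to the more active oestradiol. In the ovary both enzymes are known mainly from the somatic cells around the oocyte: granulosa cells of growing follicles make oestradiol, and after the ovulatory gonadotropin signal granulosa and cumulus cells turn to progesterone.

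HSD3B1 was high on the matured arrays and low on the arrays before maturation. Its log2 level was 8.64, 7.80 and 8.16 in matured replicates 1, 2 and 3, against 4.34, 4.30 and 4.11 in replicates 1, 2 and 3 before maturation. The lowest matured array lay 3.46 log2 units above the highest array before maturation, so the groups did not overlap. The mean was 8.20 ± 0.42 in matured pools and 4.25 ± 0.12 before maturation (SD, n = 3 each), a log2 difference of 3.95 with a standard error of 0.25, or a measured 15.4-fold higher level. No other of the 12258 probes had a larger measured increase.

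HSD17B1 showed the opposite arrangement. Its log2 level was 5.34, 5.07 and 5.07 in matured replicates 1, 2 and 3, against 8.96, 9.80 and 9.96 in replicates 1, 2 and 3 before maturation. Again the groups did not overlap, with 3.62 log2 units between the highest matured array and the lowest array before maturation. The mean was 5.16 ± 0.16 in matured pools and 9.58 ± 0.54 before maturation (SD, n = 3 each). The log2 difference of -4.41, with a standard error of 0.32, is a measured 21.3-fold lower level, the decrease of rank 3 among all probes.

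**Figure D1:**
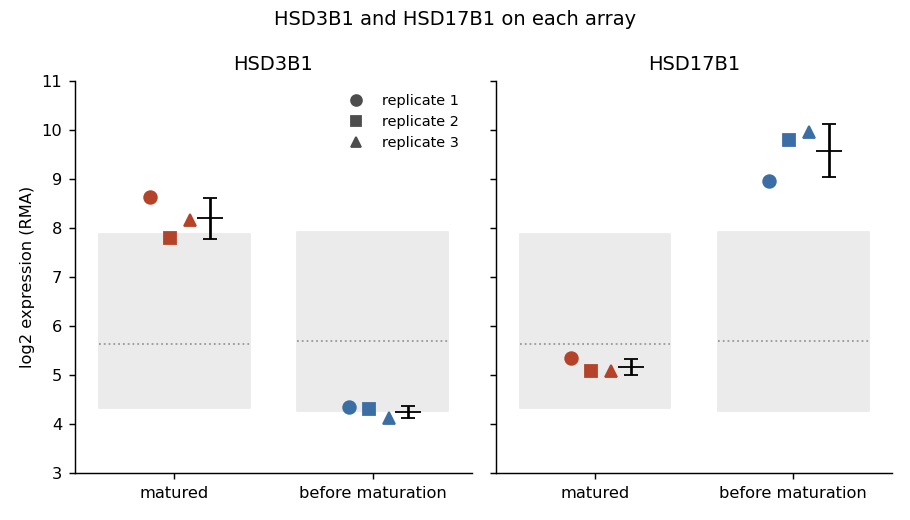
Log2 expression of HSD3B1 and HSD17B1 on each of the 6 arrays, with the matured group left of the group before maturation; symbols stand for replicates, bars for the mean ± SD (n = 3), grey boxes for the lowest lower quartile to the highest upper quartile of the group's arrays and dotted lines for the mean of their medians. The matured HSD3B1 arrays lie between 7.80 and 8.64 and the matured HSD17B1 arrays between 5.07 and 5.34.

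Each gene was also placed among all probes of its own array, where an amount added to every value of an array makes no difference. HSD3B1 stood above 75% to 83.4% of probes on the matured arrays, against 21.5% to 26.1% on the arrays before maturation. HSD17B1 stood above 39.0% to 45.5% of probes on the matured arrays, against 86.2% to 94.5% before maturation. Before maturation HSD3B1 therefore lay at the lower quartile of its arrays (4.27 to 4.30), the dim end of the scale. Detection above background was not assessed. If the dim level is background, the measured 15.4-fold understates the difference. HSD17B1 after maturation stayed 0.63 to 0.97 log2 units above the lower quartile of each array.

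Replicates of either gene differed most in the group where that gene was high. The SD of HSD3B1 among matured arrays (0.42) exceeded that of 99.1% of probes, against 43.8% of probes for its SD before maturation (0.12). The SD of HSD17B1 exceeded that of 67.0% of probes among matured arrays (0.16), against 98.6% among arrays before maturation (0.54). The median probe had an SD of 0.116 among matured arrays and 0.133 before maturation. Replicate 1 of the matured group was the highest matured array for both genes, while replicate 1 before maturation was the lowest of its group for HSD17B1 and the highest for HSD3B1. Without any 1 array the log2 difference stayed between 3.73 and 4.15 for HSD3B1 and between -4.72 and -4.22 for HSD17B1.

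The unequal change of the genes can be read within arrays, where a shift common to all probes cancels. The log2 difference of HSD3B1 minus that of HSD17B1 was 8.36, with a standard error of 0.40 (n = 3 arrays per group). It was 8.35 under cyclic loess and 8.36 under the other 3 of 4 alternative scalings. A scaling that holds 41 probes of cytosolic ribosomal protein genes level moved the single differences to 4.45 for HSD3B1 and -3.91 for HSD17B1, and the groups of neither gene overlapped under any of the 4 scalings.

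**Figure D2:**
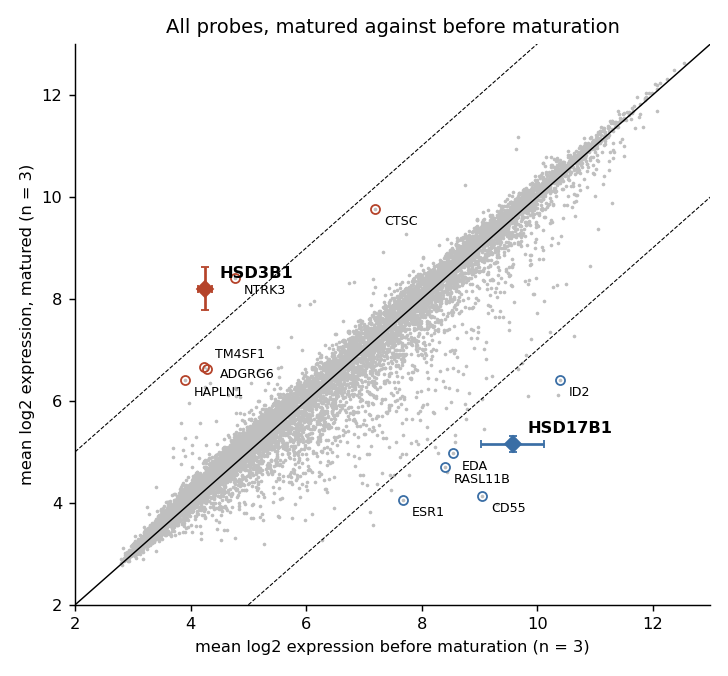
Mean log2 expression of each of the 12258 probes in matured pools (vertical axis) against pools before maturation (horizontal axis), n = 3 each; the solid line marks equal levels and the dashed lines a log2 difference of 3 either way. Diamonds with SD bars are HSD3B1 (8.20 matured, 4.25 before) and HSD17B1 (5.16 matured, 9.58 before), and open circles are the 5 named genes with the most similar profile to each.

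As a frame for the genes described next, limma called 394 probes higher (3.21%) and 989 lower (8.07%) after maturation at an adjusted p under 0.05, 11.3% of all probes in total. With the replicate number as a block it called 621 higher and 1226 lower. The median probe differed by 0.08, and 0.58 with ribosomal protein genes held level, a scaling that adds 0.50 to each difference and under which 9847 probes were called higher and 494 lower. This scaling shifts each array by its own amount and so changes the spread within groups as well. Its p-values and counts are therefore not comparable with those of the fit without it. For a single gene the smallest two-sided p of an exact permutation test with 3 arrays a side is 0.1, and all p-values here measure only the spread between these pools. An unadjusted limma p under 0.05 was found for 3580 of the 12258 probes, in either direction. For 36.1% of probes the matured arrays and those before maturation did not overlap, and 2 probes were at least 8-fold higher while 24 were at least 8-fold lower.

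The genes with the profile most like HSD3B1 were found as the smallest root mean square difference over the 6 arrays, after centring each gene on its own mean. NTRK3, which encodes a neurotrophin receptor, was the closest, with a root mean square difference of 0.29 log2 units. Its levels were 8.40, 8.34 and 8.51 in matured replicates 1 to 3, against 4.80, 4.74 and 4.77 before maturation, so its replicates were far tighter than those of HSD3B1. CTSC, a lysosomal protease gene (0.76), TM4SF1, a membrane protein gene (0.77), HAPLN1, a gene of the hyaluronan matrix (0.78), and ADGRG6, an adhesion receptor gene (0.96), followed. The last 4 had log2 differences of 2.57, 2.42, 2.51 and 2.34, all smaller than that of HSD3B1. Before maturation the mean of CTSC stood above 66.9% of probes, whereas TM4SF1, HAPLN1 and ADGRG6 stood above 23.7%, 16.1% and 25% of probes, at or under the lower quartile like HSD3B1.

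Around HSD17B1, CD55, which encodes a complement regulator, was the closest with a root mean square difference of 0.36, followed by ESR1, the oestrogen receptor alpha gene (0.44), RASL11B, a small GTPase gene (0.44), ID2, an inhibitor of DNA-binding proteins (0.48), and EDA, which encodes ectodysplasin (0.50). ESR1 had log2 levels of 4.30, 3.71 and 4.17 in matured replicates 1 to 3, against 7.09, 7.67 and 8.27 before maturation. Among the arrays before maturation, HSD17B1, ESR1, RASL11B and EDA were lowest in replicate 1 and highest in replicate 3, and ID2 was not. CD55 was highest in replicate 3 and stood at 8.87 in both replicate 1 and replicate 2. CD55 had a log2 difference of -4.90, larger than that of HSD17B1, and the other 4 had differences of -3.99 to -3.57. These genes were picked for their likeness in the same contrast, so their differences are a description as well.

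Of the other enzymes of steroid synthesis and conversion, 11 of 22 listed genes were measured, and none came near the size of either difference. Limma called 1 higher and 2 lower (27.3% called, beside 11.3% of all probes), with 8 not called. Their differences ran from -0.77 to 0.38 with a median of 0.01, against 0.08 over all named genes. HSD11B1, whose enzyme interconverts cortisone and cortisol, had a log2 level of 4.57 ± 0.07 in matured pools and 5.33 ± 0.16 before maturation (SD, n = 3 each). It fell by 0.77 (standard error 0.11, limma adjusted p = 0.00305), a call that ended under the ribosomal scaling (-0.26, adjusted p = 0.126). FDXR, the ferredoxin reductase gene that feeds electrons to the mitochondrial steroid hydroxylases, fell by 0.68 to 5.11 ± 0.16 in matured pools, against 5.79 ± 0.23 before maturation (adjusted p = 0.0184). The call of FDXR ended without matured replicate 1 or 2 or replicate 2 before maturation (adjusted p of 0.0516 to 0.0751) and under the ribosomal scaling (-0.18, adjusted p = 0.268). STS, the steroid sulfatase gene, rose by 0.38 to 8.88 ± 0.02 in matured pools, against 8.50 ± 0.04 before maturation (adjusted p = 0.0251), and the call ended without any 1 of the 6 arrays (adjusted p of 0.0513 to 0.0906).

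CYP17A1, whose enzyme leads from progestins to androgens and is known from theca cells, had a log2 level of 3.89, 4.18 and 3.80 in matured replicates 1 to 3, against 3.72, 3.85 and 3.84 before maturation. The arrays overlapped, and the gene lay under the lower quartile in both groups (difference 0.15, limma adjusted p = 0.412). CYB5A, whose product aids the lyase step of CYP17A1, had 9.01 ± 0.13 in matured pools and 8.86 ± 0.17 before maturation, with a difference of 0.15 (adjusted p = 0.427). HSD3B7, a relative of HSD3B1 that acts in bile acid synthesis, had a difference of -0.21 (adjusted p = 0.304). SRD5A2 and AKR1C1, which encode reductases of steroids, lay under the lower quartile in both groups with differences of 0.01 and -0.03. The first steps of the pathway, carried by STAR and CYP11A1, were not analysed here.

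The other measured members of the HSD17B family had far smaller differences than HSD17B1. Of 11 listed members 7 were measured. Limma called 0 of them higher and 2 lower, beside 8.07% of all probes called lower, and the other 5 were not called. At an unadjusted p under 0.05, 3 were lower and 0 higher, beside 3580 of 12258 probes in either direction. HSD17B10, which encodes a mitochondrial enzyme, had a log2 level of 7.06 ± 0.07 in matured pools and 7.51 ± 0.11 before maturation and fell by 0.45 (adjusted p = 0.0219). HSD17B8, whose product acts in mitochondrial fatty acid synthesis, had 5.65 ± 0.16 in matured pools and 6.27 ± 0.33 before maturation and fell by 0.62 (adjusted p = 0.0493). Both calls depended on single arrays and on the scaling: that of HSD17B10 ended without matured replicate 1 or 2 or replicate 2 before maturation (adjusted p of 0.0666 to 0.0822), and that of HSD17B8 without any array but replicate 1 before maturation (0.0745 to 0.165). Under a second quantile normalization neither was called (adjusted p = 0.0631 for HSD17B10 and 0.0746 for HSD17B8), and under a common median HSD17B8 was not (0.0557). With ribosomal protein genes held level HSD17B10 turned to 0.05 and HSD17B8 was at -0.12, neither called. HSD17B14 had a difference of -0.42 and passed the test with the replicate block (adjusted p = 0.0371) and also without replicate 1 before maturation (0.0407) or matured replicate 3 (0.0464), and not in the unblocked fit of all arrays (0.0582). HSD17B7, an enzyme gene of both oestradiol and cholesterol synthesis, had a log2 level of 10.70 ± 0.10 in matured pools and 10.66 ± 0.04 before maturation (difference 0.04, adjusted p = 0.815). HSD17B2, which encodes the enzyme that turns oestradiol back into oestrone, and HSD17B3 and HSD17B13 had differences of -0.06, 0.03 and -0.02. Under the ribosomal scaling HSD17B2, HSD17B3, HSD17B7 and HSD17B13 were called higher, as were most probes.

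**Figure D3:**
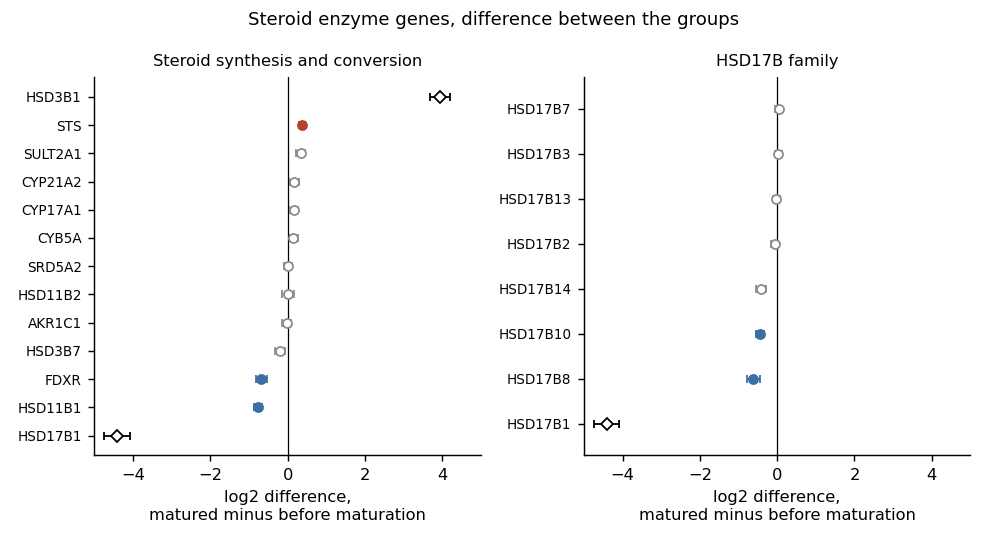
Log2 difference, matured minus before maturation, of steroid enzyme genes (left) and of the HSD17B family (right), with standard errors as bars (n = 3 per group). Open diamonds are HSD3B1 (3.95) and HSD17B1 (-4.41), which were not tested; filled red and blue circles are genes called higher and lower by limma, open grey circles are genes not called, and every circle lies between -0.77 and 0.38.

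Genes of cholesterol supply provide the substrate of the pathway. Of 19 measured genes (of 32 listed) 3 fell and 0 rose (15.8% called lower, beside 8.07% of all probes), with a median of -0.03. At an unadjusted p under 0.05, 4 were lower and 1 higher, beside 3580 of 12258 probes in either direction. A second quantile normalization called 1 higher. SC5D, a late enzyme gene of cholesterol synthesis, had log2 levels of 5.29, 5.23 and 5.62 in matured replicates 1 to 3, against 6.81, 7.22 and 7.88 before maturation. It fell by 1.92 (standard error 0.25, limma adjusted p = 0.00189). ACAT2, which encodes an acetyl-CoA acetyltransferase, fell by 0.94 to 5.48 ± 0.27 in matured pools, against 6.43 ± 0.26 before maturation (adjusted p = 0.0111). STARD4, which encodes a cholesterol carrier, had 3.66 ± 0.21 in matured pools and 4.43 ± 0.41 before maturation and fell by 0.77 (adjusted p = 0.0452). Its call ended under the ribosomal scaling (-0.27) and without any array but replicate 2 before maturation (adjusted p of 0.0521 to 0.150), and under a common median (0.0524). The lipoprotein receptor gene SCARB1, which brings in cholesterol esters, had 8.24 ± 0.25 in matured pools and 8.51 ± 0.41 before maturation (adjusted p = 0.424), and the endosomal cholesterol transporter gene NPC1 had 10.66 ± 0.07 in matured pools and 10.67 ± 0.05 before maturation (adjusted p = 0.921). SQLE, HMGCS1 and CYP51, which encode enzymes of cholesterol synthesis, differed by 0.02, -0.03 and -0.12.

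Among receptors for steroids and gonadotropins, oestrogen receptor alpha had the largest of the called differences. Of 15 measured genes (of 19 listed) 3 fell and 0 rose (20% called lower, beside 8.07% of all probes). At an unadjusted p under 0.05, 6 were lower and 1 higher, beside 3580 of 12258 probes in either direction. With the replicate block PAQR7 was called higher and PRLR lower. ESR1, already described as close to HSD17B1 in profile, averaged 4.06 ± 0.31 in matured pools and 7.68 ± 0.59 before maturation, a measured 12.3-fold lower level (limma adjusted p = 0.000137). Its matured mean lay under the lower quartile, so the same limit of dim signal holds for this fold as for that of HSD3B1. ESR2, the oestrogen receptor beta gene, had 7.79 ± 0.13 in matured pools and 7.51 ± 0.09 before maturation and was not called (difference 0.28, adjusted p = 0.116), although a second quantile normalization and the ribosomal scaling called it higher. INSR, the insulin receptor gene, had 5.38, 5.24 and 5.41 in matured replicates 1 to 3, against 7.34, 6.60 and 7.08 before maturation, and fell by 1.66 (adjusted p = 0.000724). PGRMC1, a membrane-associated progesterone-binding protein gene, fell by 0.82 (adjusted p = 0.0255). Its call ended without any 1 matured array (adjusted p of 0.0502 to 0.103) and under the ribosomal scaling (-0.32). PGR, the nuclear progesterone receptor gene, had 5.95 ± 0.07 in matured pools and 6.03 ± 0.19 before maturation (difference -0.08, adjusted p = 0.683). LHCGR, the luteinizing hormone receptor gene, had 5.57, 5.36 and 5.13 in matured replicates 1 to 3, against 5.26, 5.96 and 6.46 before maturation, with overlapping arrays (adjusted p = 0.221). It was called lower without replicate 1 before maturation, where its difference was -0.85 (adjusted p = 0.0232). The follicle-stimulating hormone receptor gene was not analysed here.

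Transcription factors known to act on steroid enzyme genes held more decreases. Of 21 measured genes (of 28 listed) 8 fell, 1 rose and 12 were not called, so that 38.1% were called lower beside 8.07% of all probes. This list, like the others, was chosen with earlier results of these data known, so the share is a description. NR5A1, which encodes steroidogenic factor 1, had log2 levels of 5.95, 5.54 and 5.89 in matured replicates 1 to 3, against 6.99, 6.93 and 7.17 before maturation, and fell by 1.23 (limma adjusted p = 0.000755). Its relative NR5A2, whose product is the liver receptor homologue 1, fell by 1.05 to 7.02 ± 0.32 in matured pools, against 8.06 ± 0.58 before maturation (adjusted p = 0.0462), and this call ended without any array but replicate 1 before maturation (adjusted p of 0.0638 to 0.155), under a second quantile normalization (0.0669) and under cyclic loess (0.0526). GATA6, a zinc finger factor gene, fell by 1.04 to 9.62 ± 0.06 in matured pools, against 10.66 ± 0.24 before maturation (adjusted p = 0.00161). FOXO1, a forkhead factor gene of granulosa cells, fell by 0.62 to 10.05 ± 0.06 in matured pools, against 10.66 ± 0.09 before maturation (adjusted p = 0.00439). The call of FOXO1 ended under the ribosomal scaling (-0.12). The signal-responsive genes JUN, EGR1 and CITED2 fell, with differences of -2.12, -1.41 and -1.53 (adjusted p = 0.00103, 0.00248 and 0.000588). RUNX1 and RUNX2, runt family factor genes, went in opposite directions. RUNX2 had 8.45, 7.96 and 8.58 in matured replicates 1 to 3, against 7.83, 6.01 and 6.67 before maturation, and rose by 1.5 (adjusted p = 0.0492), while RUNX1 fell by 0.77 (adjusted p = 0.0381). RUNX2 lost the call without any array but replicate 1 before maturation (0.0955 to 0.154) and under cyclic loess (0.0552), and RUNX1 lost the call without any 1 matured array or replicate 3 before maturation (0.0586 to 0.131) and under the ribosomal scaling. NR0B1, which encodes a repressor of NR5A1 action, had 7.72 ± 0.18 in matured pools and 7.86 ± 0.35 before maturation (adjusted p = 0.623).

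Genes of gonadotropin and cAMP signalling act upstream of steroid synthesis in the follicle. Of 19 measured genes (of 22 listed) 1 rose and 2 fell, or 15.8% called beside 11.3% of all probes. PTGS2, the inducible prostaglandin synthase gene, rose by 1.11 to 5.13 ± 0.18 in matured pools, against 4.03 ± 0.10 before maturation (limma adjusted p = 0.000752), where it lay under the lower quartile. PDE7B, a cAMP phosphodiesterase gene, fell by 1.62 to 4.78 ± 0.11 in matured pools, against 6.41 ± 0.24 before maturation (adjusted p = 0.000188). PRKAR1A, a regulatory subunit gene of protein kinase A, fell by 0.47 (adjusted p = 0.0426), a call that ended without any 1 of the 6 arrays (0.0579 to 0.116) and under a common median (0.0564). Its difference turned to 0.0365 under the ribosomal scaling. PDE3A, the cAMP phosphodiesterase gene of the oocyte, had 8.35 ± 0.06 in matured pools and 8.23 ± 0.04 before maturation (adjusted p = 0.369). AREG, EREG and BTC, which encode EGF-like peptides of the ovulatory signal, lay under the lower quartile in both groups, with differences of 0.14, 0.09 and -0.16.

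Over the 6 lists together, 92 of 134 genes other than HSD3B1 and HSD17B1 were measured, of which 3 rose and 20 fell. That is 25% called, beside 11.3% of all probes, again a description, since the lists were chosen with earlier results known. With the replicate block 5 were called higher and 24 lower: PAQR7 and PDE4D joined the higher ones, and ADCY6, HSD17B14, NR4A3 and PRLR the lower ones. Of the 23 called genes 13 kept the call without each of the 6 arrays in turn. Without matured replicate 1 or 2 the count of lower genes was 12. A plain linear model, which does not share the spread between probes, called 1 gene higher (STS) and 3 lower (ESR1, FOXO1 and PDE7B).

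**Figure D4:**
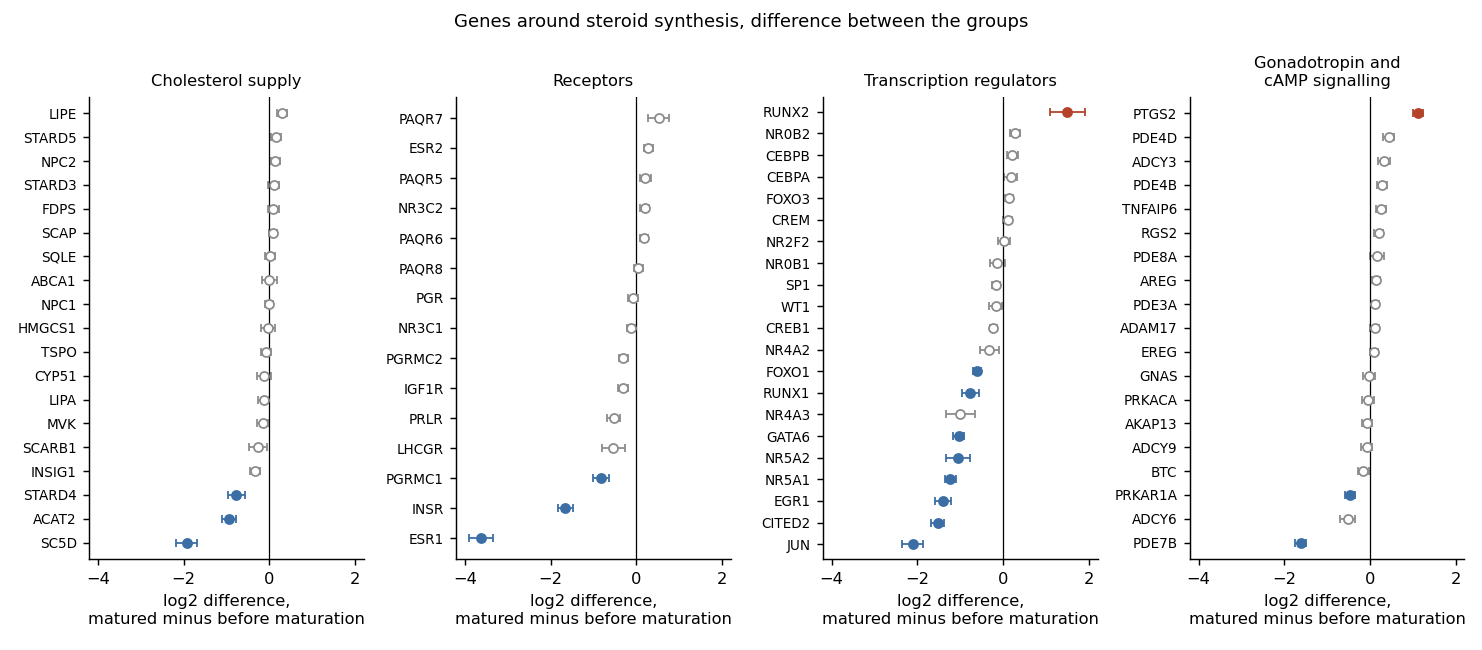
Log2 difference, matured minus before maturation, of the measured genes of 4 lists around steroid synthesis, with limma standard errors as bars (n = 3 per group). Filled red and blue circles were called higher and lower and open grey circles were not called; decreases lead, with ESR1 at -3.61, JUN at -2.12 and SC5D at -1.92, and RUNX2 (1.5) and PTGS2 (1.11) are the only genes of these lists called higher.

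Because both enzymes are known from somatic cells of the follicle, cell type markers were measured on the same arrays. Most oocyte genes stood high on the arrays of both groups: the 13 measured markers stood at a median percentile of 98.4 in matured pools and 98.9 before maturation, with GDF9 at 11.06 ± 0.04 in matured pools and 11.01 ± 0.03 before maturation. SOHLH1 stood lower, above 35.2% of probes in matured pools and 32.1% before maturation, as did FIGLA, above 66.1% in matured pools and 62.4% before maturation. Of the 13, KIT, ZP3 and ZP4 fell, with differences of -1.22, -0.70 and -0.40 (limma adjusted p = 0.0011, 0.0104 and 0.0343), and 10 were not called. That is 23.1% called lower, beside 8.07% of all probes. The calls of ZP3 and ZP4 ended under the ribosomal scaling (-0.20 and 0.10), and that of ZP4 also without any 1 array (adjusted p of 0.0640 to 0.0972) and under a common median (0.0511). Markers of cumulus and granulosa cells stood at a median percentile of 65.8 in matured pools and 74.4 before maturation. Detection above background was not assessed for them, and AMH and GATM stood above only 25.3% and 37.2% of probes in matured pools. Their summed linear level over 14 genes, without HSD3B1 and HSD17B1, was 3593 to 3893 array units in matured pools, against 7527 to 9106 before maturation, and the groups did not overlap. Of these 14 genes 9 fell (64.3%, beside 8.07% of all probes called lower) and 1 rose. NR5A1 and NR5A2, already counted among the transcription factors, are among those that fell. SERPINE2, GJA1 and FST, genes of a protease inhibitor, a gap junction protein and an activin antagonist, fell, with differences of -2.92, -2.27 and -2.15 (limma adjusted p = 8.94e-06, 2.45e-05 and 9.57e-05), and BMPR1B, a BMP receptor gene that oocytes are also known to express, rose by 0.63 (adjusted p = 0.00471). BMPR1B was by far the brightest gene of this list in matured pools, at 10.78 ± 0.11, against 10.15 ± 0.07 before maturation. It therefore weighs most in the matured sum, and the sum understates the fall of the other genes. HSD17B1 thus differed in the direction of this list and HSD3B1 against it, and what part the cell makeup of the pools has in either difference was not tested. In such pools fewer cells of a type and less RNA per cell cannot be told apart.

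Markers of other follicle cells were read in the same way. The summed level of 14 theca and stromal markers was 633 to 655 in matured pools, against 678 to 785 before maturation, with COL3A1 and POSTN called higher and ACTA2 lower (21.4% called, beside 11.3% of all probes). ACTA2, a smooth muscle actin gene, had a log2 level of 4.46 ± 0.31 in matured pools and 6.39 ± 0.31 before maturation. The median difference of the list was 0.08, as over all probes, so the median shows no rise of the list beyond that of all probes, while its sum was lower in matured pools. DCN, a stromal proteoglycan gene, was called higher with the replicate block (limma adjusted p = 0.0440, against 0.0710 without it). A common median called 3 markers of this list higher, and the ribosomal scaling 10. CYP17A1, the defining theca enzyme gene, and the stromal gene LUM lay under the lower quartile in both groups. COL3A1 and POSTN lay under it before maturation, and with the dimmest 25% of probes left out 0 markers of this list were called higher. COL3A1 lost the call without any array but matured replicate 3 (adjusted p of 0.0790 to 0.154), under a second quantile normalization (0.0739) and under cyclic loess (0.0968), and POSTN without matured replicate 1 or 3 or replicate 2 or 3 before maturation (0.0544 to 0.105). The 7 endothelial markers summed to 406 to 471 in matured pools, against 383 to 405 before maturation, with 0 called by limma (beside 11.3% of all probes) and 2 higher at an unadjusted p under 0.05. With the replicate block 1, SOX17, was called higher. Under a common median 1 of these markers was called higher, as also without the dimmest 25% of probes. The same count came from limma with a trend and robust spread and from the plain linear model, and the ribosomal scaling called 7. KDR was under the lower quartile in both groups. The 10 leukocyte markers summed to 696 to 711 in matured pools, against 589 to 658 before maturation, with CD3E called higher (10% called, beside 11.3% of all probes, and 5 higher at an unadjusted p under 0.05). Of all 12258 probes, 3580 had an unadjusted p under 0.05 in either direction. With the replicate block CD14, a monocyte gene, was called higher as well (adjusted p = 0.0470). PTPRC, which marks all leukocytes, was under the lower quartile in both groups, and CD3E lost its call without any array but replicate 2 before maturation (0.0866 to 0.122) and under cyclic loess (0.0528).

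**Figure D5:**
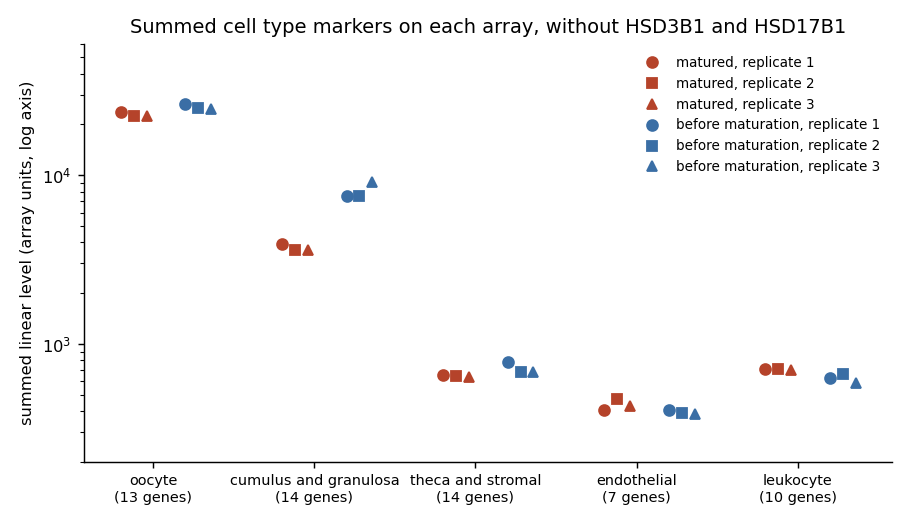
Summed linear level (2 to the power of the log2 value, added over the genes of a list; log axis, array units) of 5 cell type marker lists on each array, matured arrays in red left of arrays before maturation in blue. Cumulus and granulosa markers span 3593 to 3893 in matured pools and 7527 to 9106 before maturation, whereas theca and stromal markers span 633 to 655 in matured pools and 678 to 785 before maturation, although their median log2 difference is 0.08, as over all probes.

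Genes next to the members in the order of the RefSeq assembly Sscrofa11.1 had smaller differences than the members. The 3 nearest measured genes on either side were taken, a choice made after the members' values were known. ZNF697 and PHGDH, on one side of HSD3B1, rose by 0.38 and 0.55 (limma adjusted p = 0.0417 and 0.0254), and HAO2, adjacent on the other side, had a difference of 0.33 (adjusted p = 0.106). REG4, TBX15 and GDAP2, farther out, had differences of 0.29, 0.20 and 0.09. Beside HSD17B1, the adjacent COASY had a difference of -0.25 and MLX of 0.24 (adjusted p = 0.278 and 0.210), while RETREG3 fell by 1.23 to 8.13 ± 0.22 in matured pools, against 9.36 ± 0.37 before maturation (adjusted p = 0.00519). STAT3, STAT5A and GHDC on the other side had differences of 0.15, -0.07 and -0.04. Over all probes 3.21% were called higher and 8.07% lower. How the calls of these neighbours hold without single arrays was not examined, and PHGDH before maturation (4.29) lay near the lower quartile, as did HSD3B1.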

How the data were processed

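The deposited table holds log2 expression values that the authors made with RMA, per the submitters' processing notes. RMA as usually run corrects background, quantile-normalizes arrays and summarises probes; its version, options and any probe filter were not given in the sources used here. A log2 scale was taken from the RMA method and the range of the values, and quantile normalization can hide a shift common to all transcripts. Detection calls were not analysed here. Probes were named from the platform annotation of GEO, and symbols were brought up to date by gene ID against RefSeq (Sscrofa11.1). Of 12258 probes 10922 had 1 gene symbol, 268 several and 1068 none. Where several probes shared a gene (49 genes), the one with the highest mean was used.

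All probes were fitted with limma (version 3.58.1, under R 4.3.3) by lmFit and eBayes as matured minus before maturation, two-sided, with Benjamini-Hochberg adjustment and a threshold of 0.05. Standard errors of HSD3B1 and HSD17B1 come from their own group SDs, and those of other genes from limma. The named genes were these 2, the 5 most similar profiles of each, every called gene of the 6 pathway lists and of the marker lists, the measured HSD17B family, and CYP17A1, LHCGR, ESR2 and PGR. Other listed genes are described as well but stand outside this set. The members, lists and alternatives were chosen with earlier results of these data known. One list gene, CYP51, was matched by a synonym. Same-numbered arrays deviated together from their group means (r = 0.283, 0.120 and 0.142 over probes), against r of -0.168 to 0.019 for arrays of unlike number. Deviations from a group mean cancel within the group, so these r values depend on each other. They do not settle whether the numbers pair the arrays, and the labels name no pairing. The unblocked fit is therefore the main one, and counts with the replicate block are given beside it. The fit was tested on simulated data with known changes. Array replicates differed by a median of 0.125 to 0.168 within groups, so none was a copy. The alternatives were the replicate block, 4 scalings, a filter on the dimmest 25% of probes, limma with a trend and robust spread, a plain linear model, a single probe for each gene and leaving out each array. Python 3.11.15 with pandas 2.3.3 and matplotlib 3.10.9 was used for tables and figures. The number of arrays limits the precision.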

Additional observations from a re-analysis of the deposited data

How the results depend on the processing

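HSD3B1 was higher and HSD17B1 lower in matured pools under the 4 scalings and without each array, as a description, since this difference chose them; a replicate block cannot move it in a balanced design. Their differences ran from 3.73 to 4.15 for HSD3B1 and from -4.72 to -4.22 for HSD17B1 without 1 array, and that of HSD3B1 minus HSD17B1 from 8.10 to 8.71. With ribosomal protein genes held level HSD3B1 was at 4.45. That scaling adds the same amount to every difference and also changes the spread within groups. ACTA2 moved from -1.93 to -1.43, yet its limma adjusted p fell from 0.000585 to 3.26e-06. The scaling called 9847 probes, 58 pathway genes and 41 marker genes higher, and 494 probes and 11 pathway genes lower. It turned HSD17B10 (0.052), PRKAR1A (0.0365) and ZP4 (0.10) positive without a call, and HSD17B13 (0.48), HSD17B2 (0.44) and PGR (0.43) to called higher. With the replicate block 621 probes, 5 pathway genes and 7 marker genes were called higher, and the block ended no call of a named gene. A common median gave 915 higher probes and 7 higher marker genes, a second quantile normalization 596 higher probes and 5 higher pathway genes, and cyclic loess 254 higher probes and 2 higher marker genes. The plain linear model, which does not share the spread between probes, called 50 probes higher and 147 lower, 1 pathway gene higher and 3 lower, and 2 marker genes higher and 6 lower. Without 1 array 103 to 434 probes were called higher and 531 to 1013 lower, 1 to 2 pathway genes higher and 12 to 21 lower, and 1 to 3 marker genes higher and 10 to 13 lower. Among the 56 named genes other than these 2, the plain linear model ended the calls of 30, SC5D, INSR, NR5A1, GATA6, JUN, EGR1, CITED2, PTGS2 and KIT among them, and limma with trend and robust spread those of HSD17B10 and PRKAR1A. The 56 include the 5 genes most like each of HSD3B1 and HSD17B1, which were picked in this same contrast, so their calls are a description. A common median, a second quantile normalization and cyclic loess ended 4 calls each. HSD3B1 before maturation lies at the lower quartile, so signal over background limits its fold.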
